A study of Rattus norvegicus with 32 samples.

Results

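The genes described here encode the core proteins of the splicing machinery and its best known RNA-binding regulators: the SR proteins (symbols starting Srsf), the heterogeneous nuclear ribonucleoproteins or hnRNPs (Hnrnp), the proteins of the small nuclear ribonucleoprotein particles or snRNPs (Snrp), and the SF3A and SF3B complexes of the U2 particle (Sf3a, Sf3b). They were chosen by symbol alone: every row of the count table whose gene identifier maps to a rat symbol with one of these 5 beginnings, pseudogenes left out. This gave 49 of the 17327 genes in the table: 11 SR genes, 18 hnRNP genes, 11 snRNP genes, 3 SF3A genes and 6 SF3B genes. Another 9 rat symbols of the same kind (Srsf8, Hnrnpa0, Hnrnpcl1, Hnrnpll, Snrpd3, Snrpd3l1, Snrpel3, Snrpepl2 and Snrpgl1) were not analysed here. All 49 passed the filter on low counts.

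Introns are removed by the spliceosome, which assembles on each transcript from small nuclear RNAs and their proteins. The Sm proteins (here Snrpb, Snrpn, Snrpd1, Snrpd2, Snrpe, Snrpf and Snrpg) form a ring around the small nuclear RNAs, other snRNP proteins belong to single particles (Snrpa and Snrpc to U1, Snrpa1 and Snrpb2 to U2), and SF3A and SF3B help the U2 particle hold the branch point. SR proteins bind exonic enhancers and mostly favour inclusion of an exon, and hnRNPs coat nascent transcripts and often favour skipping, so the balance of both groups shapes which isoforms a tissue makes. Many SR and hnRNP genes also carry exons whose inclusion sends their own transcript to decay, and counts per gene do not separate those isoforms.

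RNA came from the uterus of Sprague-Dawley rats of the NCTR colony at the end of the study (PND365, counted in days after birth). The vehicle was 0.3% carboxymethylcellulose in all 8 groups, and the control group received the vehicle alone. Ethinyl estradiol (EE2, an orally active estrogen) was given to 2 groups, at 0.05 or 0.5 µg/kg of body weight daily. Bisphenol A (BPA, a plastics monomer with weak estrogenic activity) was given to 5 groups, at 2.5, 25, 250, 2500 or 25000 µg/kg daily. Groups are named below by agent and dose. All were dosed by gavage, the dams from gestation day 6 until labor and the pups themselves from postnatal day 1 until the end of the study. Each of the 8 groups held 4 libraries. The labels name no animal, litter, estrous stage or batch, so p-values measure the spread between these libraries. The libraries are numbered in group order, so library number and group cannot be told apart.

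Total counts ran from 11777809 to 24661856 per library. Markers of uterine epithelium (8 of 8), smooth muscle (7 of 7) and stroma (7 of 7) were all measured, with summed levels of 517 to 2372, 10255 to 33467 and 5410 to 39764 CPM (counts scaled to the size of the library) across libraries. Of the libraries, 4 stood apart from the rest (BPA 2.5 replicates 1 and 3, BPA 250 replicate 1 and BPA 25000 replicate 3): their median correlation with the other libraries was 0.892 to 0.926, against 0.938 or more elsewhere. Since these are whole-tissue samples, fewer cells of a type and less RNA per cell cannot be told apart in any value below. RefSeq names pseudogenes after several of the genes, 51 after Hnrnpa1, 10 each after Srsf3 and Snrpc, 8 after Snrpg and 7 each after Srsf7 and Hnrnpk, and their counts are uncertain where reads could be shared with such copies. Snrpn, whose transcript also encodes Snurf, is a close paralog of Snrpb.

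Together the 49 genes took 0.836% to 1.43% of the CPM of a library. Their spread between libraries of a group, the biological coefficient of variation of the count model, had a median of 18.4%, against 21.1% over the 9236 genes with a mean of at least 10 CPM. By family the median was 13.4% for SF3A, 15.3% for SF3B, 16.2% for hnRNP, 19.3% for SR and 23.6% for snRNP genes. The widest was Sf3a2 at 37.3% and the narrowest Hnrnpul1 at 11.3%.

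Across the 8 groups, 17 of the 49 genes (34.7%) differed (any difference between group means, adjusted p under 0.05), beside 31.7% of the 13312 genes tested, so the share was near that of all genes. By family this was 8 of 18 hnRNP genes, 4 of 11 SR genes, 2 of 11 snRNP genes, 1 of 3 SF3A genes and 2 of 6 SF3B genes. The call held without every single library for 12 of them: Sf3b2, Sf3b6, Srsf1, Srsf3, Srsf6, Srsf11, Hnrnpa2b1, Hnrnpf, Hnrnph1, Hnrnph2, Hnrnpl and Snrpe. Hnrnpa3 lost it without BPA 25000 replicate 2 (adjusted p = 0.0607), and Snrpf lost it without control replicate 2 or 3, BPA 2.5 replicate 2 or 4 or BPA 2500 replicate 1. Hnrnpr, Sf3a3 and Hnrnpdl kept it without 16, 7 and 6 of the 32 libraries. Counts of members that differed are given below beside the percentage of all genes tested; Hnrnpr and Hnrnpdl were singled out after their values were seen.

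**Figure D1:**
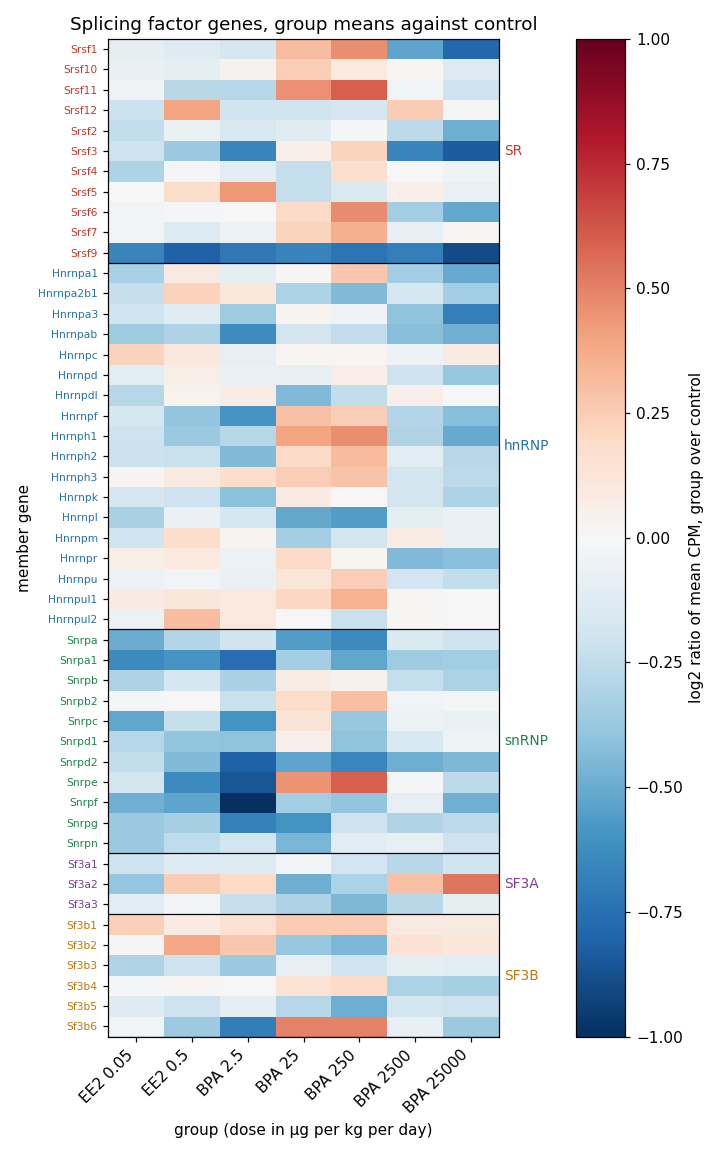
Log2 ratio of the mean CPM of each exposed group over the control mean (colour, n = 4 libraries per group) for the 49 genes in rows, ordered by family, and the 7 exposed groups in columns, with doses in µg per kg per day. The snRNP block is blue in most groups, and several rows (Srsf1, Srsf11, Hnrnpf, Hnrnph1, Snrpe and Sf3b6) are red at BPA 25 and BPA 250 and blue or pale elsewhere.

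Against the control group, each exposure was tested in the same fit; all 7 comparisons use the same 4 control libraries, so their results are not independent of each other. Neither EE2 dose gave a member that differed. At EE2 0.05 this was 0 of 49 (0.0451% of all genes; 6 members had an unadjusted p under 0.05, DESeq2 called 0 and limma voom 6), and at EE2 0.5 it was 0 (0.556%; 8, 2 and 3 in the same order). At BPA 2.5, 8 members differed, all lower (16.3%, beside 11.4% of all genes in either direction and 4.39% lower): Snrpf, Snrpd2, Snrpa1, Snrpe, Hnrnpab, Hnrnpf, Hnrnph2 and Srsf3. BPA 25 gave 0 (1.92%; 11 unadjusted, 1 by DESeq2 and 11 by limma voom). At BPA 250, 6 differed (8.79%), of which 5 were lower (4.35% of all genes were): Hnrnpl, Sf3a3, Sf3b2, Sf3b5 and Snrpd2, and 1, Hnrnpul1, was higher (4.44%). With DESeq2's size factors the split was 2 higher and 5 lower. BPA 2500 gave 0, as it did among all genes (0%; 9 unadjusted, and 0 by DESeq2 and by limma voom). At BPA 25000, 4 were lower (2.32% of all genes in either direction, 0.962% lower): Srsf1, Srsf3, Srsf9 and Hnrnpa3.

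Most of these calls against control were lost without 1 or more single libraries. Leaving out 1 library at a time gave 1 to 10 calls at BPA 2.5, where control replicate 3 took the count to 1, BPA 2.5 replicate 1 to 3 and control replicate 2 to 5. It gave 0 to 8 at BPA 250, where the count was 0 without control replicate 4 or BPA 250 replicate 1, 1 without control replicate 2 or BPA 250 replicate 4, 2 without control replicate 3 and 4 without control replicate 1 or BPA 250 replicate 3. It gave 0 to 5 at BPA 25000, with 0 without control replicate 2, 3 or 4 or BPA 25000 replicate 2 or 4. Snrpf at BPA 2.5 was the member whose call against control held without each of the 8 libraries in turn (adjusted p = 0.00629 to 0.0472). Without the 4 libraries that stood apart, added after the data were seen, the counts were 4 at BPA 2.5, 2 at BPA 25, 4 at BPA 250 and 6 at BPA 25000. Snrpf and Snrpa1 kept their BPA 2.5 calls there and the other 6 genes did not. With these fewer libraries their log2 differences were -0.48 to -1.13 (Snrpe -1.13, Snrpd2 -0.86, Hnrnpf -0.69, Srsf3 -0.63, Hnrnpab -0.52 and Hnrnph2 -0.48). At BPA 250 Hnrnpl, Sf3a3 and Sf3b2 kept theirs, and at BPA 25000 all 4 did. In a fit of only the groups compared, which leaves fewer libraries to estimate the spread, no member was called at BPA 2.5.

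The snRNP genes, which encode the protein shell of the spliceosomal particles, were the family furthest below control at BPA 2.5. All 11 had a mean below control there under each of 3 scalings, with a median log2 difference of -0.60, beside 0.05 for all genes tested, -0.16 for SR, -0.13 for SF3A, -0.07 for hnRNP and -0.05 for SF3B genes. Of these 11, 4 passed the test. In every library of BPA 2.5 the mean log2 CPM of the family was below each of the 4 controls, and the group mean was 0.60 below that of the controls. All 4 libraries also lay below every control for the snRNP family at EE2 0.05 and for the SR family at BPA 2.5. The 11 members also lay below control at EE2 0.05 (median -0.37), EE2 0.5 (-0.33), BPA 2500 (-0.14) and BPA 25000 (-0.26), 10 of 11 at both EE2 doses and at BPA 25000 with the other scalings and 9 of 11 at BPA 2500 with upper-quartile scaling, and no member passed the test in those groups.

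Snrpf, an Sm ring protein, stood at 9.05, 13.1, 16.9 and 10.2 CPM in the 4 controls and at 7.10, 4.70, 7.93 and 4.40 CPM at BPA 2.5, so the groups did not overlap. The log2 difference was -1.03 ± 0.24 (SE; adjusted p = 0.00702). Snrpd2, which pairs with Snrpd1 in the same ring, was at 34.9, 41.5, 47.5 and 41.2 CPM in control and at 18.9, 18.8, 30.2 and 26.4 CPM at BPA 2.5, a difference of -0.81 ± 0.20 (adjusted p = 0.0111), again without overlap. It was the snRNP gene called at BPA 250 as well, at 23.1, 26.99, 36.7 and 18.2 CPM, where 1 of the 4 libraries reached into the control range (-0.66 ± 0.20, adjusted p = 0.0425). Over the mean of the 5 BPA doses it was lower by a log2 difference of -0.58 ± 0.15 (adjusted p = 0.0475). Without control replicate 3 or BPA 2.5 replicate 1 the BPA 2.5 call of Snrpd2 was lost (highest adjusted p = 0.0533).

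Snrpa1, a U2 particle protein, was at 18.02, 24.4, 24.5 and 19.4 CPM in control and 14.9, 10.2, 12.2 and 13.6 CPM at BPA 2.5 (-0.76 ± 0.20, adjusted p = 0.0165), a call that was lost only without control replicate 3 among the 8 libraries. Its highest BPA 2.5 library was below its lowest control. Snrpe, another ring protein, was at 21.04, 28.1, 36.2 and 26.5 CPM in control and at 17.7, 15.4, 18.6 and 10.01 CPM at BPA 2.5 (-0.86 ± 0.27, adjusted p = 0.0376); this call held in 2 of 8 such refits, the losses being without control replicates 2, 3 and 4 and BPA 2.5 replicates 1, 2 and 4. The ring partner Snrpg, at 85.1 ± 14.8 CPM (SD, n = 4) in control and 53.3 ± 22.8 CPM at BPA 2.5, did not pass (adjusted p = 0.106), nor did Snrpb (86.2 ± 10.2 and 69.02 ± 9.84 CPM, adjusted p = 0.209) or Snrpn (20.6 ± 6.16 and 17.97 ± 4.73 CPM, adjusted p = 0.634).

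Other gene groups moved in the BPA 2.5 libraries, where 11.4% of all genes differed from control and 4.39% were lower. Of 82 ribosomal protein genes tested, 42 were lower at BPA 2.5 and none higher (median log2 difference -0.76), and their summed level was 15859 to 30628 CPM against 27728 to 46770 CPM in control. Of 77 respiratory chain genes, 29 were lower and none higher (median -0.53; 3144 to 4323 CPM against 4479 to 6262 CPM). All 5 motile cilia markers were higher, from 0.797 to 1.98 CPM summed in control to between 2.68 and 421 CPM. Of 5 squamous markers 3 were higher (1.85 to 5.86 CPM in control, 24.8 to 36.6 CPM at BPA 2.5). The same 3 (Krt5, Krt14 and Calml3) were higher at both EE2 doses, where no member was called. The squamous list summed to 2.20 to 403 CPM at EE2 0.05 and 31.6 to 229 CPM at EE2 0.5. The nuclear RNA Meg3 ran from 8.93 to 80.2 CPM at BPA 2.5 and from 5.35 to 29.5 CPM in control. The part of these in the snRNP result was not tested.

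**Figure D2:**
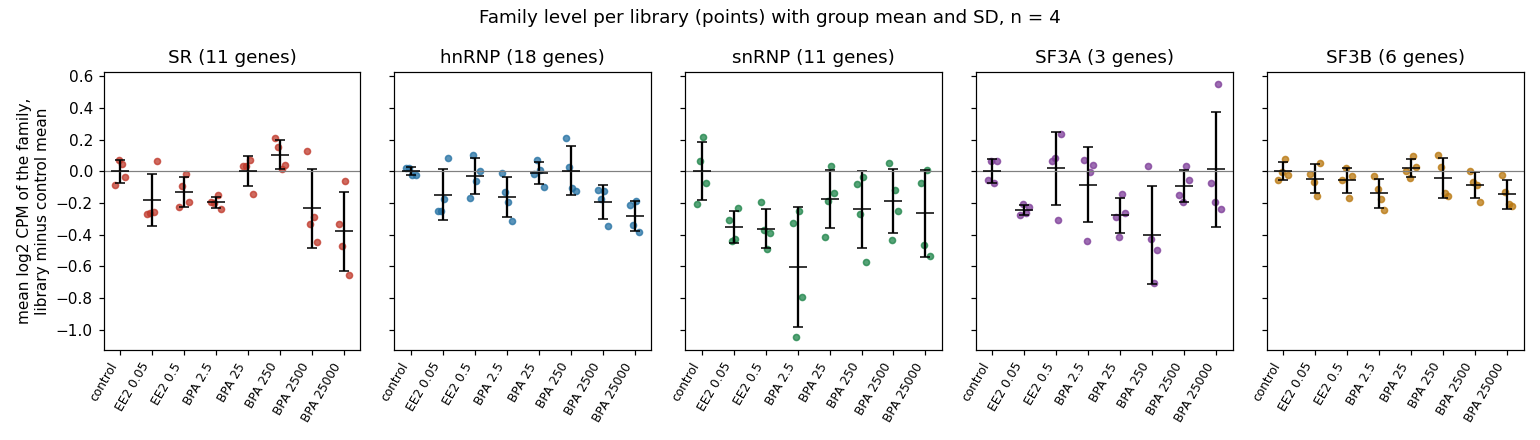
Mean log2 CPM of each family in each library, less the mean of the 4 controls (vertical axis), by group, with points for libraries and bars for the group mean and SD (n = 4), and 1 panel per family. All 4 libraries lie below every control library for snRNP at EE2 0.05 and BPA 2.5, for SR at BPA 2.5, for hnRNP at BPA 2500 and BPA 25000 and for SF3A at EE2 0.05 and BPA 25.

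Among the SR genes, Srsf1, the founding SR protein, spanned the widest range of group means that passed the test across groups. It was at 725, 785, 692 and 657 CPM in the controls, 861, 1104, 851 and 726 CPM at BPA 25, 1248, 992, 778 and 933 CPM at BPA 250, 545, 587, 446 and 403 CPM at BPA 2500 and 418, 420.0, 429 and 388 CPM at BPA 25000. The 4 libraries of BPA 25000 lay below every control library and below every library of the groups from BPA 2.5 to BPA 250 and of both EE2 doses, and overlapped with those of BPA 2500. Against control the log2 difference was -0.79 ± 0.19 at BPA 25000 (adjusted p = 0.0314), a call lost without control replicate 2, 3 or 4 or BPA 25000 replicate 2 or 4 (adjusted p up to 0.113). At BPA 250 it was 0.47 ± 0.19 (adjusted p = 0.107), which did not pass. Over the 5 BPA doses Srsf1 had a linear trend of -0.21 log2 units per 10-fold step in dose (SE 0.04, adjusted p = 0.0108), and this held without every one of the 20 BPA libraries, though the means rose from BPA 2.5 (637 ± 150.1 CPM) to BPA 250 (988 ± 196 CPM) before the drop.

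Srsf3, the smallest SR protein, was at 599, 733, 677 and 542 CPM in control, 446, 535, 352 and 285 CPM at BPA 2.5 and 399, 319, 387 and 331 CPM at BPA 25000. All libraries of both exposed groups lay below the controls. The log2 differences were -0.66 ± 0.21 (adjusted p = 0.0391) and -0.83 ± 0.21 (adjusted p = 0.0362). The first was lost without control replicate 1, 2 or 3 or BPA 2.5 replicate 1, 3 or 4, and the second without the same 5 libraries as Srsf1. Srsf9 was at 61.1, 97.8, 90.1 and 78.00 CPM in control and had means of 43.9 to 51.7 CPM in the 7 exposed groups, so its control level was the highest of the 8. It passed at BPA 25000 (47.5, 32.4, 63.3 and 32.5 CPM, -0.90 ± 0.24, adjusted p = 0.0469) and over the mean of the BPA doses (-0.74 ± 0.18, adjusted p = 0.0417). The BPA 25000 call was lost without control replicate 2, 3 or 4 or BPA 25000 replicate 1, 2 or 4, and 1 library of BPA 25000 (63.3 CPM) lay above the lowest control (61.1 CPM).

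Srsf6, at 555 ± 43.5 CPM in control (SD, n = 4), 772 ± 183 CPM at BPA 250 and 390.1 ± 72.6 CPM at BPA 25000, had a linear trend of -0.16 log2 units per 10-fold step in BPA dose (SE 0.04, adjusted p = 0.0347). As for Srsf1 the course was not steady: the means were 556, 636 and 772 CPM at the lowest 3 doses and 437 CPM at BPA 2500. This trend was lost without BPA 2.5 replicate 1 or 2, BPA 25 replicate 1, BPA 2500 replicate 3 or 4 or BPA 25000 replicate 1, 2 or 4. Srsf1 and Srsf6 were the 2 members with a trend over BPA dose (4.08%, beside 4.62% of all genes and 3.42% falling). Srsf9 and Snrpd2 were the 2 that differed over the BPA mean (beside 1.34% of all genes, 0.759% lower). Leaving out 1 library gave 1 to 5 members with a trend and 0 to 3 over the BPA mean, where the Srsf9 call held without 11 and the Snrpd2 call without 10 of the 24 libraries and neither without control replicate 2, 3 or 4. Srsf2 and Srsf10 passed in no comparison with control; their means were 225 to 315 and 50.6 to 65.5 CPM. Srsf5 was at 223 ± 24.2 CPM in control and 302 ± 58.8 CPM at BPA 2.5 (adjusted p = 0.0994).

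**Figure D3:**
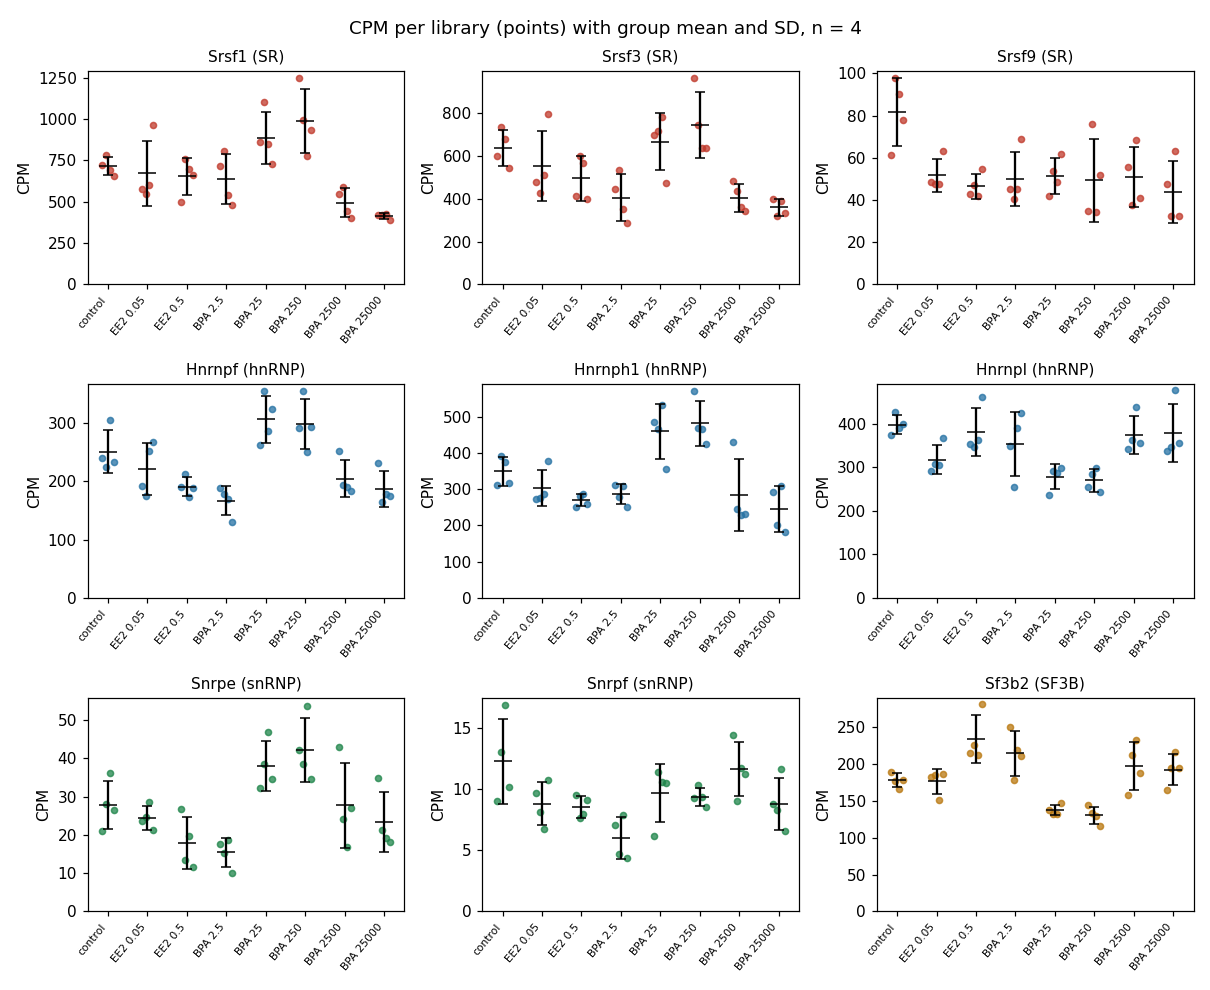
CPM of 9 genes in each of the 32 libraries (points; vertical axis from 0) by group, with the group mean and SD (n = 4). Srsf1, Srsf3, Hnrnpf, Hnrnph1 and Snrpe have their highest 2 group means at BPA 25 and BPA 250. Hnrnpl and Sf3b2 have their lowest 2 there, and Srsf9 is highest in control. Srsf3 at BPA 25 is near control (log2 difference 0.06, adjusted p = 0.89).

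Of the 18 hnRNP genes, 17 lay below control at BPA 25000, with a median log2 difference of -0.29 beside 0.02 for all genes tested. It was 14 of 18 with the other scalings, and 1 gene passed the test. Other families lay below control there too: 10 of 11 SR genes (median -0.21), all 11 snRNP genes (-0.26) and 44 of the 49 members together. The family mean of log2 CPM differed from control by -0.38 for SR and -0.28 for hnRNP genes. At EE2 0.05 (median -0.19) and BPA 2500 (-0.19), 14 of 18 hnRNP genes lay below control under each of the 3 scalings and none passed. At EE2 0.5, BPA 2.5, BPA 25 and BPA 250 it was 8, 12, 7 and 8 of 18. At BPA 250 the family median was 0.02 and turned to -0.03 with upper-quartile scaling. Hnrnpa3, a paralog of Hnrnpa1, was at 1061, 1195, 1035 and 1057 CPM in control and 745, 627, 692 and 642 CPM at BPA 25000, with no overlap (-0.68 ± 0.18, adjusted p = 0.0376). This call was lost without any 1 of the 4 controls or without BPA 25000 replicate 2 or 4. Hnrnpa1 itself, a classical splicing silencer, was at 759.9 ± 58.7 and 537 ± 68.5 CPM (SD, n = 4) and did not pass (adjusted p = 0.216).

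Hnrnpf, Hnrnph1 and Hnrnph2 belong to a subfamily that binds G-rich sequences. Hnrnpf was at 240.4, 225, 305 and 234 CPM in control, 188, 178, 170.4 and 131 CPM at BPA 2.5, 263, 354, 287 and 323 CPM at BPA 25 and 291, 355, 250.8 and 294 CPM at BPA 250. BPA 2.5 lay below control without overlap (-0.59 ± 0.16, adjusted p = 0.0165, lost without control replicate 3), while BPA 25 and BPA 250 overlapped with control (adjusted p = 0.255 and 0.303). Hnrnph2 was at 59.3, 55.3, 59.2 and 58.99 CPM in control and 44.7, 45.4, 43.7 and 37.5 CPM at BPA 2.5 (-0.44 ± 0.15, adjusted p = 0.0462), a call lost in 7 of the 8 refits without 1 library, all except that without BPA 2.5 replicate 2. Hnrnph1 was at 349 ± 40.4 CPM in control and 482 ± 62.2 CPM at BPA 250 and passed against control in no group. Nor did Hnrnph3, which had a log2 difference of 0.17 ± 0.18 at BPA 2.5 (adjusted p = 0.573).

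Hnrnpl, which binds CA-rich sequences, and Hnrnpul1, a member of the hnRNP U group, moved in opposite directions at BPA 250. Hnrnpl was at 375, 426, 391 and 400.1 CPM in control and 255, 284, 299 and 242 CPM at BPA 250, with no overlap (-0.56 ± 0.15, adjusted p = 0.0217, lost without control replicate 2 or 4 or BPA 250 replicate 1 or 4). Hnrnpul1 was at 176, 181, 169 and 165 CPM in control and 267, 206, 211 and 195 CPM at BPA 250, all 4 above control (0.35 ± 0.10, adjusted p = 0.0314). It was lost without control replicate 1, 3 or 4 or BPA 250 replicate 1, and was not called without the 4 libraries that stood apart (adjusted p = 0.0838, log2 difference 0.25). Hnrnpab, a binder of AU-rich RNA, fell at BPA 2.5 from 766, 768, 847 and 735 CPM in control to 474, 468, 463 and 616 CPM (-0.63 ± 0.16, adjusted p = 0.0132), without overlap, a call lost without control replicate 3 or BPA 2.5 replicate 1. Hnrnpc, which binds U-rich tracts, had the smallest F value of the hnRNP genes, with group means from 249.6 to 309 CPM, and Hnrnpk, a binder of C-rich sequences, ran from 514 to 723 CPM with no call against control.

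In the SF3B complex, which holds the branch point of the intron, the subunits did not move together. Sf3b2 had the smallest adjusted p of the 49 genes across the 8 groups (F = 10.2, adjusted p = 0.000188). Its libraries read 189.5, 178, 167 and 179 CPM in control, 215, 226, 212 and 282 CPM at EE2 0.5, 138, 133, 132 and 147 CPM at BPA 25 and 145, 133, 129 and 116 CPM at BPA 250. Both of those BPA groups lay below control without overlap and EE2 0.5 above it without overlap. The difference passed at BPA 250 (-0.45 ± 0.13, adjusted p = 0.0306, lost without control replicate 1, 2 or 4 or BPA 250 replicate 1, 3 or 4) but not at BPA 25 (-0.38 ± 0.13, adjusted p = 0.083) or EE2 0.5 (0.39 ± 0.13, adjusted p = 0.123). Sf3b6, the subunit that contacts the branch point adenosine, went the other way, with 13.8, 15.2, 19.9 and 15.7 CPM in control, 13.1, 12.9, 8.20 and 5.67 CPM at BPA 2.5, 20.6, 21.2, 25.7 and 23.5 CPM at BPA 25 and 28.6, 23.4, 19.96 and 18.99 CPM at BPA 250. All BPA 25 libraries were above every control. Sf3b6 passed against control in no group (adjusted p = 0.0672 at BPA 2.5, 0.215 at BPA 25 and 0.183 at BPA 250). Sf3b5 was lower at BPA 250 (22.8, 28.99, 30.2 and 23.8 CPM against 33.6, 38.1, 41.9 and 34.8 CPM, -0.49 ± 0.15, adjusted p = 0.0399), which was lost without control replicate 2, 3 or 4 or BPA 250 replicate 1 or 4. Sf3b1, the scaffold subunit mutated in several blood cancers, had group means of 730.0 to 872 CPM and passed in no comparison.

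Of the 3 SF3A genes, Sf3a3 was at 67.6, 78.97, 73.2 and 69.7 CPM in control and 51.4, 59.3, 48.7 and 52.9 CPM at BPA 250, without overlap (-0.45 ± 0.12, adjusted p = 0.0285; lost without control replicate 2, 3 or 4 or BPA 250 replicate 1, 3 or 4). Sf3a1 had means of 50.1 to 60.7 CPM and Sf3a2 of 6.52 to 13.2 CPM, the last raised by 1 library at 26.7 CPM. Beside the BPA 250 calls, 5 of 82 ribosomal protein genes and 8 of 77 respiratory chain genes were lower there (4.35% of all genes were). The stromal markers Dcn and Lum were higher (2 of 7, beside 4.44% of all genes). Summed stroma was 26477 to 29685 CPM against 9699 to 29226 CPM in control. Of the epithelial markers 1 of 8 (Wfdc2) was lower. Single markers of other cells were called there as well, in a comparison where 8.79% of all genes differed. Emcn of endothelium (1 of 6), Cd163 of macrophages (1 of 5) and Lpl of fat (1 of 5) were higher. Tpsab1 of mast cells (1 of 5 tested) was lower. The median log2 differences of these lists were 0.08, 0.58, 1.67 and 0.13 in that order. Their lists summed to 518 to 936 CPM against 556 to 617 in control for endothelium and to 213 to 305 against 157 to 262 for macrophages. They summed to 295 to 950.3 against 86.4 to 619 for fat and 30.2 to 92.6 against 13.99 to 183 for mast cells and eosinophils. The part of these in the result was not tested.

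RefSeq promoter windows (assembly GRCr8, from 250 bases before to 50 after the start) were found for 48 of the 49 genes, and 4 motifs were searched on both strands. The letters CCGGAAGT, the consensus of ETS factors such as GABPA, were in 8 of 48 windows (16.7%), beside 7.41% of the 10688 windows of genes tested and 4.01% of all 27457 windows. All 3 SF3A genes held them, as did Snrpb, Snrpe, Srsf4, Srsf5 and Hnrnpd, and none of the 5 SF3B windows did. The palindromic consensus of the estrogen response element was in 0 of 48 windows in 1 of the 10688 of genes tested and in 7 of all 27457, the cyclic AMP response element TGACGTCA in 1 (Snrpg; 2.08% of the 48, beside 3.003% of windows of genes tested and 1.91% of all), and the palindromic element bound by NRF1 in 2 (Sf3a2 and Snrpb2; 4.17%, beside 1.66% and 0.932%). A match is a string of letters and not a measured site. The windows of the 3 SF3A genes, a complex with the motif in every gene, and of the 2 snRNP genes with it are given from 110 bases before the start to 10 bases after it, in the direction of transcription, with the motif or its reverse complement in capitals.
Sf3a1 (chr14:83254861-83254980, + strand): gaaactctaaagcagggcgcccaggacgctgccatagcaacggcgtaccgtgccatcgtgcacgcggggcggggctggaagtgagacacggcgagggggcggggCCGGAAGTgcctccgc
Sf3a2 (chr7:9566196-9566315, - strand): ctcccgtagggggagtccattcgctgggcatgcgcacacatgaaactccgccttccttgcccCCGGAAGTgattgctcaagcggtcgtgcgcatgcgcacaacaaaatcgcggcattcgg
Sf3a3 (chr5:142252297-142252416, + strand): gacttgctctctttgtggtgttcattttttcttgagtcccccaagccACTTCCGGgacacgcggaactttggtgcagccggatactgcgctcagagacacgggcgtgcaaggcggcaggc
Snrpb (chr3:137832470-137832589, - strand): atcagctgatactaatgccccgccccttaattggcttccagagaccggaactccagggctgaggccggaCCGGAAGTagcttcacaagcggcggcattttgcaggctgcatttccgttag
Snrpe (chr13:47609242-47609361, - strand): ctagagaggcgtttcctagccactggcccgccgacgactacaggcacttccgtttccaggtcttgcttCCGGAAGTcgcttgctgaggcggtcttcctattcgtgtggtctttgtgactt
The first base of the motif lies 6 bases before the start in Sf3a1, 48 in Sf3a2, 63 in Sf3a3, 41 in Snrpb and 42 in Snrpe. Of these genes Snrpe had its highest group mean at BPA 250 (42.2 CPM) and Sf3a3 its lowest there (53.1 CPM). The highest group mean was in control for Sf3a1, at BPA 25000 for Sf3a2 and at BPA 25 for Snrpb. A link between the motif and these levels was not tested.

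No member differed between BPA 25 and BPA 250, nor did any other gene tested. Many members differed between these groups and the doses on either side, and so did many of all genes. The shares of all genes were 20.6% from BPA 2.5 to BPA 25 and 14.4% from BPA 250 to BPA 2500. The comparisons between BPA doses in this and the next paragraphs were added after the values had been seen. Between BPA 25 and BPA 250, 0 of 49 members and 0 of 13312 genes (0%) differed in edgeR. There 1 member had an unadjusted p under 0.05, and DESeq2 and limma voom called 0 members. For 18 of 49 members (36.7%) BPA 25 and BPA 250 had the highest 2 of the 8 group means, beside 18.2% of all genes tested, and for 6 (12.2%) the lowest 2, beside 20.3%. Those highest in both were 6 of 11 SR genes, 6 of 18 hnRNP, 3 of 11 snRNP, 3 of 6 SF3B and 0 of 3 SF3A genes.

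Against BPA 2.5, BPA 25 had 12 members that differed (24.5%, beside 20.6% of all genes), 9 higher (18.4%, beside 9.53%) and 3 lower (6.12%, beside 11.1%). Higher were Hnrnpf, Hnrnph1, Hnrnph2, Hnrnpk, Snrpe, Snrpf, Srsf3, Srsf11 and Sf3b6, and lower were Sf3b2, Srsf5 and Hnrnpdl. Snrpe went from 17.7, 15.4, 18.6 and 10.01 CPM at BPA 2.5 to 32.2, 38.5, 46.98 and 34.7 CPM at BPA 25, a log2 difference of 1.30 ± 0.27 (adjusted p = 0.00205), with no overlap. Sf3b6 rose by 1.19 ± 0.25 (adjusted p = 0.00215) and Hnrnpf by 0.88 ± 0.16 (adjusted p = 0.000902), while Sf3b2 differed by -0.64 ± 0.13 (adjusted p = 0.00154). These 4 calls, and those of Hnrnph1, Hnrnph2 and Srsf11, held without each of the 8 libraries; the count of calls was 10 to 14 in those refits and 12 without the libraries that stood apart. The upper-quartile scaling moved the median of all genes to -0.11 in this comparison, from -0.08, and gave 8 higher and 4 lower calls.

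From BPA 250 to BPA 2500, 12 members differed (24.5%, beside 14.4% of all genes), 2 higher (4.08%, beside 6.66%) and 10 lower (20.4%, beside 7.71%). From BPA 250 to BPA 25000 it was 19 members (38.8%, beside 22.2%), 3 higher (6.12%, beside 11%) and 16 lower (32.7%, beside 11.2%). These 2 comparisons share the BPA 250 libraries. By family, 9 of 18 hnRNP genes, 4 of 11 SR genes, 2 of 6 SF3B genes and 1 of 11 snRNP genes were lower at BPA 25000 than at BPA 250. Srsf1 differed by -1.25 ± 0.19 (adjusted p = 0.000178), its 418, 420.0, 429 and 388 CPM at BPA 25000 lying below all BPA 250 libraries. Srsf3 (-1.05 ± 0.21, adjusted p = 0.00109), Srsf6 (-0.99 ± 0.19, adjusted p = 0.000832) and Hnrnph1 (-0.97 ± 0.19, adjusted p = 0.000869) were lower as well. Sf3b2, Hnrnpl and Sf3a3 were the 3 that were higher at BPA 25000. The summed stromal markers were at 26477 to 29685 CPM at BPA 250, at 15037 to 39764 CPM at BPA 2500 and at 5410 to 25774 CPM at BPA 25000. Proliferation markers summed to 62.3 to 143, 66.6 to 258 and 152 to 350 CPM in the same order. Red blood cell markers summed to 258 to 391, 226 to 445 and 73.1 to 241 CPM. The ranges of all other cell marker lists overlapped between BPA 250 and BPA 25000. The part of these markers in the results was not tested.

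The calls of Srsf1, Srsf3, Srsf6, Srsf11, Hnrnpf, Hnrnph1, Hnrnph2, Hnrnpa3 and Sf3b2 from BPA 250 to BPA 25000 held without each of the 8 libraries. Without BPA 250 replicate 1, in which Srsf1, Srsf3 and Srsf6 were at their highest of all 32 libraries, 12 members were called at BPA 25000 and 7 at BPA 2500. Without BPA 2500 replicate 3 or 4 the count at BPA 2500 was 5. Without the 4 libraries that stood apart the counts were 8 at BPA 2500 and 9 at BPA 25000. Upper-quartile scaling, which moved the median of all genes from 0.07 to 0.14 and from 0.06 to 0.13, gave 7 calls at BPA 2500, 2 higher and 5 lower, and 18 at BPA 25000. BPA 250 also had 15 members that differed from BPA 2.5 (29.9% of all genes did) and 14 that differed from EE2 0.5 (21.4%), and BPA 25 had 10 that differed from EE2 0.5 (15.7%), 7 from BPA 2500 (8.46%) and 13 from BPA 25000 (16.9%). Between BPA 2500 and BPA 25000 edgeR called none of the 13312 genes (0%; 0 members at an unadjusted p under 0.05).

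**Figure D4:**
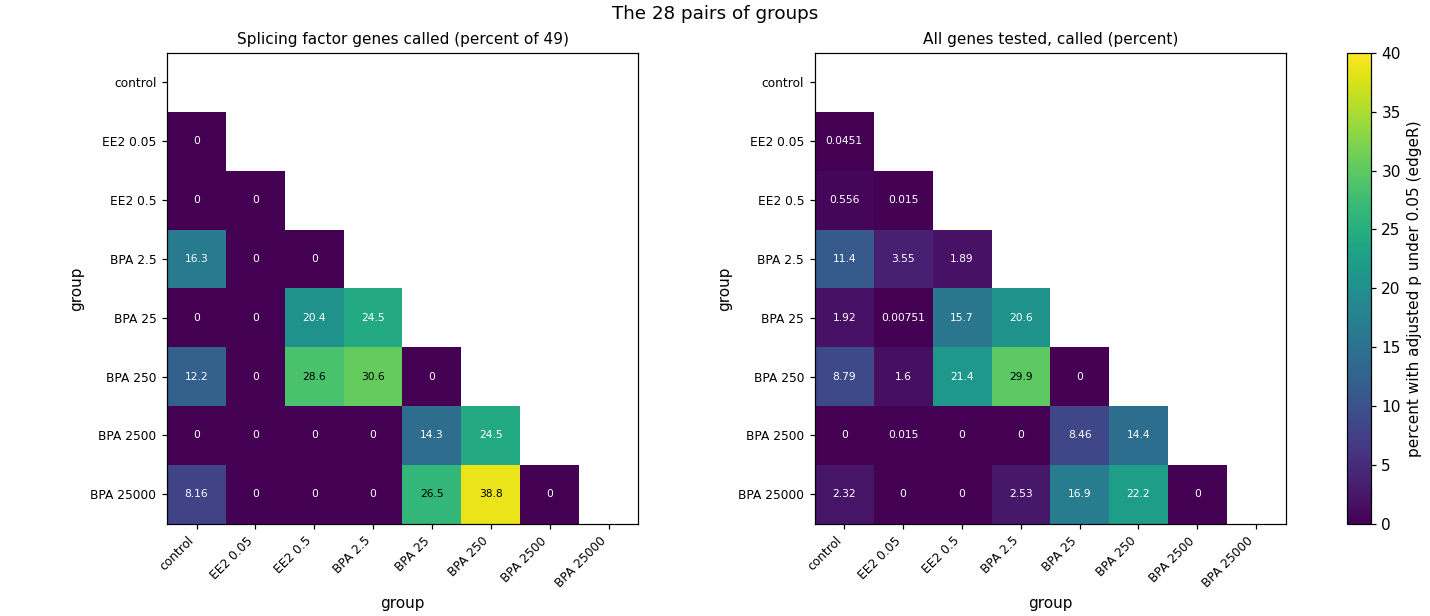
Percentage of the 49 splicing factor genes (left) and of all 13312 genes tested (right) that differed in each of the 28 pairs of groups, in edgeR at an adjusted p under 0.05; rows and columns are groups, with doses in µg per kg per day. The 7 pairs with the most members called (10 to 19 of 49) each set BPA 25 or BPA 250 against EE2 0.5, BPA 2.5, BPA 2500 or BPA 25000. BPA 2.5 against control follows with 8, and BPA 25 against BPA 250 has 0. The pairs of exposed groups were added after the values had been seen.

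Correlations over the 32 libraries, given as a description since libraries share groups and depth, link members across families. The genes most like Srsf1 in log2 CPM were Srsf3 (Pearson r = 0.90), Hnrnpu (0.89) and Srsf6 (0.88). Those most like Hnrnpf were Hnrnpk (0.89), Hnrnph2 (0.88) and Sf3b6 (0.82), and those most like Snrpe were Sf3b6 (0.84), Srsf11 (0.80) and Hnrnpf (0.76). Sf3b2 ran against both, with r = -0.76 to Hnrnpf and -0.84 to Snrpe. Within a family the median r over pairs was 0.40 for snRNP, 0.25 for hnRNP, 0.23 for SR and -0.09 for SF3B genes, beside 0.28 between SR and hnRNP genes. Of these medians the one within the snRNP family was the highest.

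Other splicing genes, a list of 107 of which 101 were tested (U2 auxiliary factors, Prp proteins, Lsm proteins, helicases, exon junction proteins and tissue regulators), had counts against control of 0 at EE2 0.05, BPA 25 and BPA 2500. Of all genes tested, 0.0451%, 1.92% and 0% differed there. At EE2 0.5 there were 1 higher and 1 lower (0.556% of all genes differed). At BPA 2.5 there were 2 higher and 4 lower (11.4%), and at BPA 250 7 higher and 6 lower (8.79%). At BPA 25000 there were 3 lower (2.32% in either direction, 0.962% lower). Across the 8 groups 37 of 101 differed, beside 31.7% of all genes tested, so the share was near that of all genes. At BPA 2.5 the step II factors Prpf18 and Slu7 were higher and Lsm5, Khdrbs1, Rbm3 and Magoh lower. Rbm3, a cold-inducible RNA-binding protein, was at 313 ± 87.3 CPM (SD, n = 4) in control and 126 ± 19.7 CPM at BPA 2.5. At BPA 250 the helicase Dhx15 was at 494 ± 107 CPM against 340 ± 19.4 CPM, and Rbm10 at 24.6 ± 3.29 CPM against 45.2 ± 3.20 CPM. Of 9 kinases that phosphorylate SR proteins, 2 were higher at BPA 250 (4.44% of all genes were). They were Srpk2 (117 ± 20.03 CPM against 80.5 ± 6.57 CPM) and Prpf4b (412 ± 47.9 CPM against 300.4 ± 11.7 CPM). At BPA 25000 the 1 kinase called was Prpf4b, which was lower (0.962% of all genes were). Prpf4b is on both lists, so its calls are already in the counts of other splicing genes above.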

How the data were processed

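RNA from 32 uterus samples was sequenced. Reads were handled with bcl2fastq, TopHat and edgeR on the rn5 build, per the submitters' processing notes. Which versions, annotation and strand setting were used is not given in the sources used here. The values used are the deposited counts per gene, not normalized, with totals of 11777809 to 24661856 per library; 0 pairs of libraries held identical counts. A RefSeq table (GRCr8, for names only) gave a symbol for 17167 of the 17327 identifiers; the 160 others held 1.82% of the counts.

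Genes were kept by edgeR's filterByExpr (count minimum 10, total 15; 13312 genes), scaled with TMM and tested with the quasi-likelihood test (edgeR 4.0.16, R 4.3.3) over all 8 groups, with Benjamini-Hochberg adjustment over all genes and a threshold of 0.05; this gives every adjusted p in the text. The trend is linear in log10 BPA dose. CPM are TMM-scaled; log values use a prior count of 2. CPM are not divided by transcript length, so levels are compared within a gene. DESeq2 1.42.0 and limma 3.58.1 voom were alternatives, beside other scalings, filters and left-out libraries. The procedure was tested on simulated data. Python 3.11.15 with pandas 2.3.3 and numpy 2.4.6 made the summaries.

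The members and lists were chosen with earlier results of these data known. Genes were named where they passed a test (up to 10 per direction and comparison), had the largest or smallest F or the highest mean of their family, or belonged to a panel of 10. Some other members, such as Snrpg and Hnrnph3, were given beside them outside this rule. Protein sequences were not used here.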

Additional observations from a re-analysis of the deposited data

Results flagged for a closer look

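The 32 named genes were checked in each of the 8 groups for a single library far from the other 3, by the gap to the nearest library as a share of the group's range against Dixon's critical value for 4 samples. Chance gives about 1 in 20 such groups; 23 of 256 were found, and the genes are not independent of each other.

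Replicate 4 of EE2 0.05 was high for Srsf1 (965 CPM, the others at most 599), Srsf6 (704, others at most 513), Srsf9 (63.3, others at most 48.3), Hnrnph1 (377, others at most 287) and Sf3a3 (75.6, others at most 65.5), and replicate 3 of the same group was low for Sf3b2 (151 CPM, others at least 182). Replicate 3 of BPA 25000, one of the libraries that stood apart, was high for Srsf5 (315 CPM, others at most 196), Srsf6 (498, others at most 364), Hnrnpa2b1 (432, others at most 305), Hnrnpl (478, others at most 356) and Sf3a2 (26.7, others at most 9.41).

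Replicate 1 of BPA 25000 was high for Hnrnph2 (61.1 CPM, others at most 44.8) and Hnrnpk (685, others at most 514). Replicate 1 of BPA 2500 was high for Hnrnpf (251.3 CPM, others at most 194) and Hnrnph1 (431, others at most 245). Replicate 4 of BPA 2.5 was high for Srsf9 (68.8 CPM, others at most 45.2) and Hnrnpab (616, others at most 474), and replicate 4 of EE2 0.5 for Hnrnpl (461, others at most 362) and Snrpb (107, others at most 70.2). Replicate 2 of the controls was high for Hnrnpa3 (1195 CPM, others at most 1061) and low for Hnrnph2 (55.3, others at least 59.0). Replicate 1 of BPA 250 was high for Sf3a2 (15.9 CPM, others at most 5.22), and replicate 4 of BPA 25 was low for Srsf11 (149.8, others at least 175).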

How the results depend on the processing

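Counts of members called are compared with those of the edgeR test given above. No difference that passed the test for a gene and comparison changed sign in an alternative; values near 0 that did not pass could, as the counts above and below control under other scalings show (at BPA 250, 23 of 49 members above control with TMM, 25 with DESeq2's size factors and 21 with upper-quartile scaling). Upper-quartile scaling gave 1 member over the BPA mean and 7 from BPA 250 to BPA 2500; no filter gave 1 over the BPA mean. A threshold of 0.1 gave 1 at EE2 0.5, 13 at BPA 2.5, 3 at BPA 25, 11 at BPA 250, 27 across the 8 groups, 6 for the trend and 4 over the BPA mean. Limma voom with sample weights gave 6 at EE2 0.05, 3 at EE2 0.5, 14 at BPA 2.5, 11 at BPA 25, 15 at BPA 250, 27 at BPA 25000, 38 across the 8 groups, 11 for the trend, 15 over the BPA mean and 19 from BPA 2.5 to BPA 25. DESeq2 gave 2 at EE2 0.5, 1 at BPA 25, 28 across the 8 groups and 5 for the trend. With only the groups compared in the fit, which could not be run for the 8-group test, there were 1 at EE2 0.5, 0 at BPA 2.5, 7 at BPA 25, 0 for the trend, 0 over the BPA mean, 3 from BPA 2.5 to BPA 25, 4 from BPA 250 to BPA 2500 and 9 from BPA 250 to BPA 25000. Without the 4 libraries that stood apart, an alternative chosen after seeing the data, there were 4 at BPA 2.5, 2 at BPA 25, 6 over the BPA mean and 9 from BPA 250 to BPA 25000. The cause of these differences was not tested.

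Leaving out 1 library at a time gave 0 to 0 at both EE2 doses, BPA 25 and BPA 2500, 1 to 10 at BPA 2.5, 0 to 8 at BPA 250, 0 to 5 at BPA 25000, 14 to 21 across the 8 groups, 1 to 5 for the trend and 0 to 3 over the BPA mean. Between BPA doses it gave 0 to 0 (BPA 25 and 250), 10 to 14 (BPA 2.5 and 25), 5 to 14 (BPA 250 and 2500) and 12 to 19 (BPA 250 and 25000). No paired analysis was possible because the labels give no replicate numbers that link libraries across groups. The lowest snRNP genes rest on few counts: the group means of Snrpa were 4.16 to 6.48 CPM, those of Snrpc 6.22 to 10.3 CPM and those of Snrpf 6.03 to 12.3 CPM.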
